A study of Mus musculus with 15 samples.

Results

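Inguinal white adipose tissue of weaning-age mice was compared between animals lacking interleukin-33 (IL-33) and wild-type animals by RNA sequencing. The comparison takes 7 of the 15 libraries of the series, chosen by their labels for tissue, age and genotype: 4 wild-type libraries, numbered 1 to 4, and 3 IL-33-/- libraries, numbered 2 to 4, all from C57BL/6 mice at postnatal day 24. The other 8 libraries come from brown adipose tissue at postnatal day 0.5, 4 wild type and 4 labelled IL-33-/-, and serve here only for a test of whether a change differed between the tissues. Whether each library stands for an animal of its own is not stated in the labels, and the p-values reflect the spread among libraries, part of which may be technical. The labels do not state the deleted part of Il33, the sex of the mice or the time of day of collection.

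IL-33 is a cytokine stored in the nucleus of stromal and endothelial cells and released when they are damaged or stressed. It acts through the receptor ST2, encoded by Il1rl1, and its co-receptor Il1rap, and in fat it is known for sustaining type 2 innate lymphoid cells and regulatory T cells. The inguinal depot is a white fat that stores triglyceride and can also hold beige adipocytes, which burn fuel as heat through the mitochondrial uncoupling protein UCP1. Such uncoupled respiration, and its dependence on IL-33 and ST2, is the subject named in the title of the series.

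Total counts of the 7 libraries ran from 26059635 to 53923009. Levels are given below as CPM, the count of a gene scaled to library size by the TMM method, in the order wild-type libraries 1 to 4 and knockout libraries 2 to 4. Changes are log2 differences, knockout minus wild type, with a standard error (SE), and a gene passed at an edgeR adjusted p below 0.05. Of 15710 genes tested, 4498 passed (28.6%), 2410 higher in knockout (15.3%) and 2088 lower (13.3%). These shares are the background against which each gene list is read, and the median change over all tested genes was -0.02. Of the genes that passed, 790 changed by more than 2-fold, 341 upward and 449 downward. The groups did not overlap at 36.7% of tested genes. The first principal component held 59.4% of the variance and separated the groups, with the knockout libraries at 19.1 to 39.3 and the wild-type libraries at -25.6 to -16.4. The second held 12.0%, with knockout library 2 at 22.4 and the other libraries between -17.4 and 4.87. Over 42 lists of pathway and cell-type genes, 377 of the 763 tested members passed, 203 higher and 174 lower. The lists were chosen with earlier results of these data known. That choice can favour members that pass, so list shares beside the background are descriptions and not tests.

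**Figure D1:**
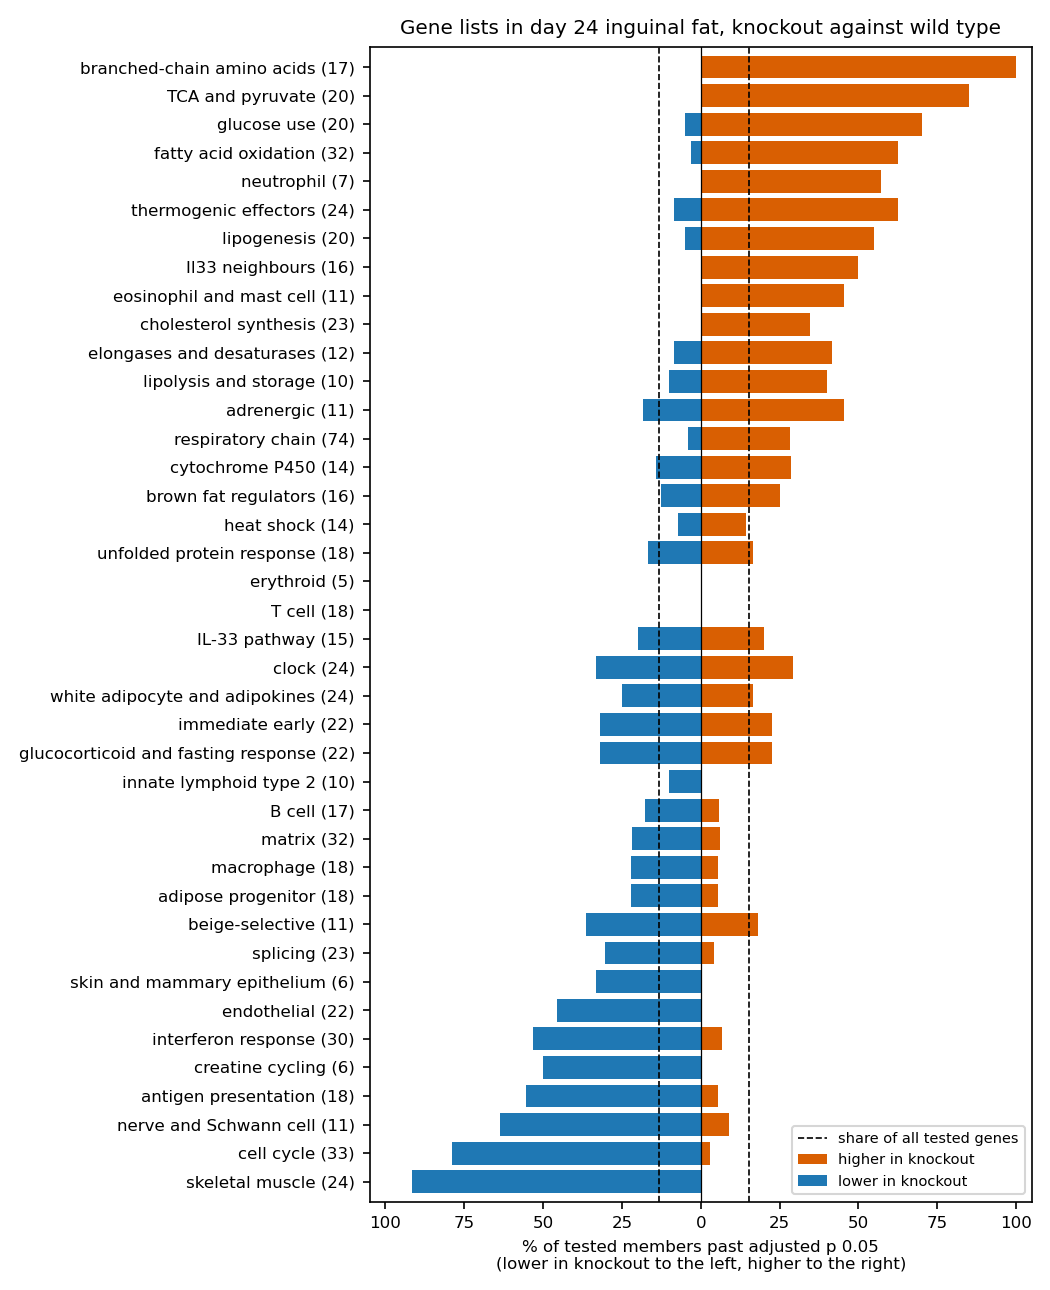
Share of the tested members of 40 gene lists that passed at an adjusted p of 0.05, lower in knockout to the left and higher to the right, with the number of tested members in brackets; dashed lines mark the shares over all 15710 genes (15.3% higher, 13.3% lower). Branched-chain amino acid and TCA cycle genes stand at the top with no member lower, and skeletal muscle and cell cycle genes at the bottom.

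Adipocyte genes were abundant in every library. Adipoq, the hormone adiponectin, ran from 1911 to 2228 CPM in wild type and from 1761 to 1910 CPM in knockout. Fabp4, a fatty acid carrier of adipocytes, ran from 11647 to 13384 CPM and from 11311 to 12110 CPM. Neither passed (log2 -0.15 and -0.11; edgeR adjusted p = 0.290 and 0.488). Lpl, lipoprotein lipase, was lower, from 9760 to 10612 CPM in wild type to 7094 to 8725 CPM in knockout (log2 -0.35, SE 0.11, edgeR adjusted p = 0.0264). Its call was lost without wild-type libraries 2 and 3 (0.131), with all 4 groups in 1 fit (0.0858), with the replicate block (0.0510), and without knockout library 2 or wild-type libraries 1, 2 or 4 alone (0.0518 to 0.0933). Of 10 genes of adipocyte identity 1 was higher and 2 lower.

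Skeletal muscle transcripts set the groups apart. Of 24 tested sarcomere and contraction genes, 22 were lower in knockout and 0 higher, with a median change of -2.64. Summed over 25 listed genes they stood at 365, 775, 647 and 493 CPM in wild type and at 219, 207 and 200 CPM in knockout. Wild-type libraries 2 and 3 held the most, the wild-type libraries differed among themselves by more than 2-fold, and the lowest of them lay above all 3 knockout libraries. Acta1, the actin of skeletal muscle, stood at 37.3, 75.8, 64.7 and 48.2 CPM in wild type and at 13.2, 11.6 and 11.3 CPM in knockout (log2 -2.23, SE 0.23, edgeR adjusted p = 0.000119). Myoglobin, Mb, which muscle uses to hold oxygen, did not pass, at 1.37 to 2.20 and 1.82 to 2.48 CPM (log2 0.19, edgeR adjusted p = 0.563). In bulk tissue, fewer cells of a type and less RNA per cell cannot be told apart.

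Muscle genes also made up most of the largest falls. Mylk4, a myosin kinase, fell by 4.27 (SE 0.43) and had 7 counts over the knockout group against 226 over wild type. Myh4, the fastest myosin heavy chain, stood at 19.4, 92.8, 61.7 and 35.7 CPM in wild type and at 3.48, 2.85 and 5.17 CPM in knockout (log2 -3.75, SE 0.68, edgeR adjusted p = 0.0113). Its call was lost without knockout library 2 (0.0575). Others were the sarcomere proteins Tcap (-3.08), Actn3 (-2.97), Mybpc2 (-2.95) and Myoz1 (-2.76), the calcium buffer Pvalb (-2.99), the calcium-handling genes Trdn (-2.78), Ryr1 (-2.76), Atp2a1 (-2.73) and Casq1 (-2.67), and the AMP deaminase Ampd1 (-2.67). Actc1, cardiac actin, was the least secure (-4.11, SE 1.02): wild-type libraries 2 and 3 held 6.91 and 5.40 CPM and the other two 1.49 and 0.948. Its adjusted p of 0.0235 rose to between 0.0761 and 0.0871 without any 1 knockout library, and to 0.0713 with no filter on low counts. Atp2a1 lost its call without knockout library 2 (0.0619). With limma-voom and library quality weights, 10 of the muscle genes passed in place of 22, and Myh4, Actc1, Pvalb, Actn3, Mybpc2, Trdn, Ryr1, Myoz1 and Atp2a1 did not (0.0623 to 0.266).

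Because wild-type libraries 2 and 3 carried the most muscle RNA, each list count below was also taken without both of them, a setting chosen after the data were seen. That left 2 wild-type and 3 knockout libraries, and 2308 of 16031 tested genes passed (1275 higher, 1033 lower) in place of 4498. With all 4 groups in 1 fit, 2249 of 16858 passed (1193 higher, 1056 lower). List counts in these settings stand beside those totals, not beside the background shares of the main fit. Without wild-type libraries 2 and 3 the muscle list had 21 members lower. The part that muscle content played in the other results was not tested.

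Markers of other cells that dissected inguinal fat can hold were also read. Of 19 skin and mammary epithelium genes, 13 were below the filter on low counts, and of the 6 tested 2 were lower in knockout and 0 higher. The summed level of all 19 ran from 173 to 199 CPM in wild type and from 101 to 124 CPM in knockout. Among the genes below the filter the highest value in any library was 2.44 CPM, for Krt18. The tested genes therefore made up most of that sum. Krt5, a keratin of basal epithelium, was at 0, 0.449, 0.0373 and 0.369 CPM in wild type and at 0 in all 3 knockout libraries. Krt8, a keratin of simple epithelium, was at 0.152, 0.0281, 0.410 and 2.23 CPM in wild type and at most 0.0331 CPM in knockout. Erythroid genes did not pass (0 of 5), and neither did T-cell genes (0 of 18). Of 17 B-cell genes 3 were lower and 1 higher, with a median of -0.82, but without knockout library 4 the lower count was 11. It was 0 without wild-type libraries 2 and 3, without wild-type library 2, knockout library 2 or knockout library 3 alone and with all 4 groups in 1 fit, and 1 without wild-type library 4. The part these cells played in the results was not tested.

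**Figure D2:**
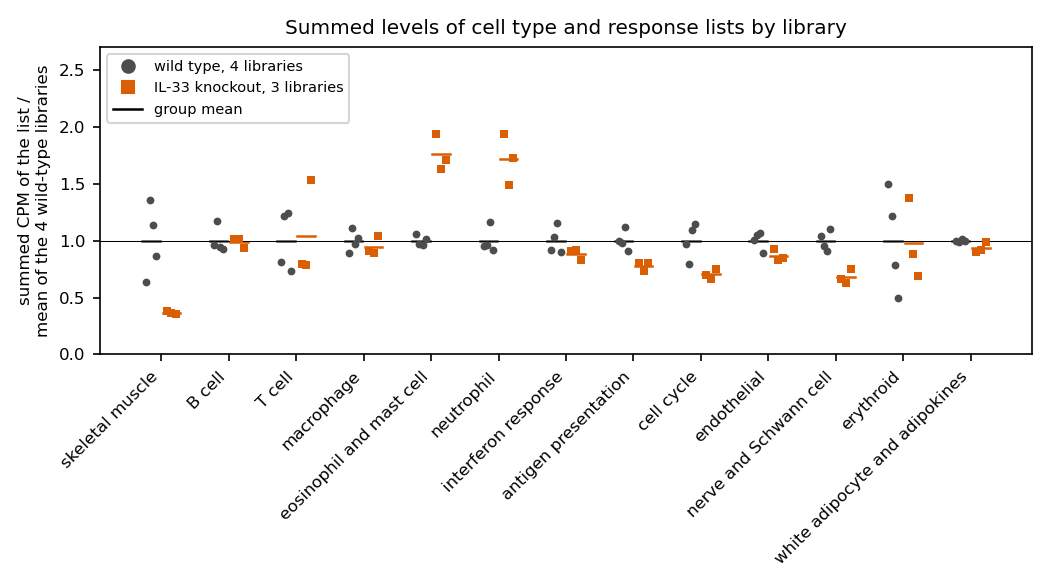
Summed CPM of the genes of 13 lists in each library, divided by the mean of the 4 wild-type libraries; dots are wild-type libraries, squares knockout libraries and short lines group means. The skeletal muscle sum of the 3 knockout libraries lies far below all wild-type libraries. The eosinophil and mast cell sum lies above them (118 to 140 against 69.6 to 76.6 CPM). In that list 5 of 10 tested mast cell genes were higher, and the 1 tested eosinophil gene did not pass. The B-cell, T-cell, macrophage and erythroid sums overlap.

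Il33 itself (ENSMUSG00000024810) stood at 3.37, 4.49, 3.73 and 3.47 CPM in wild type and at 0.344, 0.463 and 0.0771 CPM in knockout. The knockout libraries were all below the wild-type libraries, with 27 counts in all against 591. The change was -3.73 (SE 0.36, edgeR adjusted p = 1.25e-05), so the labels and the targeted gene go together. Il1rl1 stood at 3.16, 5.65, 4.21 and 4.12 CPM in wild type and at 4.99, 5.69 and 4.70 CPM in knockout. The groups overlapped and the receptor gene did not pass (log2 0.26, SE 0.19, edgeR adjusted p = 0.327).

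Of 15 tested genes of the IL-33 pathway, 3 were higher and 3 lower, Il33 among the latter, shares of 20% each way. Irak1, a kinase that relays the receptor signal, rose from 99.4 to 108 CPM in wild type to 131 to 152 CPM in knockout (log2 0.47, SE 0.08, edgeR adjusted p = 0.00124). When wild-type libraries 2 and 3 were left out the counts were 2 higher and 1 lower, and 1 was lower without knockout library 2 or 3.

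Genes that lie near Il33 on chromosome 19 were read as a group. Of 16 listed neighbours that were tested, 8 were higher and 0 lower, and 5 were higher without wild-type libraries 2 and 3 or with all 4 groups of the series in 1 fit. Among the 50 tested genes nearest to Il33, 25 on each side, 15 were higher and 9 lower, 30% and 18%, with a median of 0.12. Cd274, which encodes the checkpoint ligand PD-L1, stood at 24.2, 28.8, 22.1 and 18.8 CPM in wild type and at 43.6, 49.2 and 47.0 CPM in knockout (log2 0.99, SE 0.12, edgeR adjusted p = 7.58e-05). Ermp1, a metallopeptidase of the endoplasmic reticulum, rose by 0.48 (SE 0.09, edgeR adjusted p = 0.00183).

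Ide and Wdfy1 were among 5 genes listed because they can differ between mouse stocks or travel with a targeted allele. Ide, the insulin-degrading enzyme, stood at 81.8, 83.8, 83.4 and 83.4 CPM in wild type and at 291, 296 and 227 CPM in knockout (log2 1.71, SE 0.10, edgeR adjusted p = 2.26e-07). It lies on chromosome 19 as well, with 37 tested genes between it and Il33. Wdfy1, a scaffold of innate immune signalling, stood at 23, 24, 24.2 and 23.6 CPM in wild type and at 35.2, 40 and 58.6 CPM in knockout (log2 0.92, SE 0.14, edgeR adjusted p = 0.000467). For both genes the 4 wild-type libraries were nearly level while the knockout libraries spread widely. The origin of the chromosome around the deleted allele was not tested.

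The largest rises were not muscle genes. Cyp2b10, a cytochrome P450 known as a target of the xenobiotic receptor CAR, stood at 0.253, 0.225, 0.373 and 0.316 CPM in wild type and at 52.2, 43.9 and 35.6 CPM in knockout (log2 7.23, SE 0.19, edgeR adjusted p = 1.32e-11). Of 14 tested P450 genes 4 were higher, Cyp2b10 among them, and 2 lower. These are shares of 28.6% and 14.3%, against 15.3% and 13.3% of all tested genes. Fgf21, a hormone that liver and brown fat release in fasting and cold, had 4 counts over the wild-type group and 102 over the knockout group, a ratio of 41.3 after scaling with a 95% counting interval of 15.6 to 154. Knockout libraries 2 and 3 held 1.45 and 1.36 CPM of it and library 4 0.488 CPM.

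Elovl3, an elongase of very long fatty acids that marks cold-exposed fat, stood at 1.90, 3.74, 6.86 and 3.69 CPM in wild type and at 88.6, 92.4 and 53.1 CPM in knockout (log2 4.31, SE 0.40, edgeR adjusted p = 0.000532). Acot12, an acetyl-CoA thioesterase, rose by 3.95 (SE 0.51), Sptlc3, a subunit of the enzyme that starts sphingolipid synthesis, by 3.48 (SE 0.45), and Azgp1, a secreted lipid-mobilising glycoprotein, by 3.10 (SE 0.30). Slco4a1, an organic anion transporter, rose by 4.07, the synaptic scaffold Grip1 by 3.76, the kininogen Kng2 by 3.35 and Il22ra2, a soluble receptor that binds interleukin-22, by 3.0. Mab21l2 (4.54), Fam131c (3.19) and Tmem82 (2.94) complete the rises, with edgeR adjusted p from 1.36e-05 to 2.56e-05. Counts over the wild-type group were low for Mab21l2 (12), Acot12 (13), Sptlc3 (21), Il22ra2 (23) and Grip1 (24), which limits the precision of their folds. The call of each of these rises was kept under every alternative that tested the gene.

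The circadian clock is a loop in which BMAL1 (Arntl) with CLOCK or NPAS2 switches on the period, cryptochrome and REV-ERB genes, whose products switch the activators off again. REV-ERB and ROR proteins compete for a shared element through which Arntl is repressed or activated. Factors such as DBP, TEF and HLF carry the rhythm to output genes, and NFIL3 opposes them. Of 24 clock genes 7 were higher and 8 lower (29.2% and 33.3%). Of 10 repressors 5 were lower and 2 higher.

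Arntl stood at 2.40, 2.86, 2.39 and 2.61 CPM in wild type and at 31.6, 27.8 and 21.6 CPM in knockout (log2 3.39, SE 0.15, edgeR adjusted p = 8.01e-09). Npas2 stood at 0.456, 0.477, 1.04 and 0.579 CPM and at 7.54, 6.19 and 6.09 CPM (log2 3.41, SE 0.25, edgeR adjusted p = 1.24e-06). Clock rose less, from 53.2 to 56.9 CPM in wild type to 76.8 to 101 CPM in knockout (log2 0.70, SE 0.10). In all, 4 of 5 activators rose.

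The repressors split. Per2 stood at 44.5, 51.7, 53.7 and 53.0 CPM in wild type and at 23.2, 20.9 and 20 CPM in knockout (log2 -1.25, SE 0.10, edgeR adjusted p = 1.99e-06). Per3 fell by 1.25 (SE 0.10), from 138 to 154 CPM to 53.0 to 69.9 CPM. Nr1d2, which encodes REV-ERB beta, stood at 133, 162, 158 and 150 CPM in wild type and at 33.2, 51.5 and 56.7 CPM in knockout (log2 -1.68, SE 0.16, edgeR adjusted p = 2.57e-05). Nr1d1, REV-ERB alpha, fell by 0.64 (SE 0.14), with knockout library 2 at 88.6 CPM against a wild-type minimum of 95.6 CPM. Ciart, a repressor that binds the activator complex, fell by 1.30 (SE 0.17). On the other side, Bhlhe40 stood at 34.6, 35.1, 24.5 and 20.6 CPM and at 97.4, 87.9 and 87.4 CPM (log2 1.66, SE 0.16, edgeR adjusted p = 4.31e-05). Cry1 rose by 0.49 (SE 0.14, edgeR adjusted p = 0.0160), with knockout library 4 at 12.5 CPM next to a wild-type maximum of 11.7 CPM. That call was lost without knockout library 3 (0.102). Cry2 was at 56.5 to 61.9 and 60.3 to 73.1 CPM and did not pass (0.15, edgeR adjusted p = 0.237).

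Among the outputs, Dbp stood at 47.6, 50.2, 42.4 and 43.0 CPM in wild type and at 7.06, 5.06 and 8.64 CPM in knockout (log2 -2.72, SE 0.15, edgeR adjusted p = 2.26e-07). Tef, at 341 to 388 CPM in wild type, was at 165 to 190 CPM in knockout (log2 -1.04, SE 0.09, edgeR adjusted p = 5.86e-06). Nfil3 moved the other way, from 7.04, 6.66, 10.1 and 9.92 CPM to 37.8, 31.4 and 31.0 CPM (log2 1.99, SE 0.15, edgeR adjusted p = 1.60e-06). No knockout library reached the wild-type range of these 3 genes. The 4 clock kinases and ligases did not pass. Without wild-type libraries 2 and 3, 6 clock genes were higher and 7 lower, and Nr1d1 (0.0572) and Cry1 (0.0892) did not pass. With all 4 groups of the series in 1 fit, 4 were higher and 7 lower, and Bhlhe40, Cry1 and Nr1d1 did not pass (0.102 to 0.200).

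**Figure D3:**
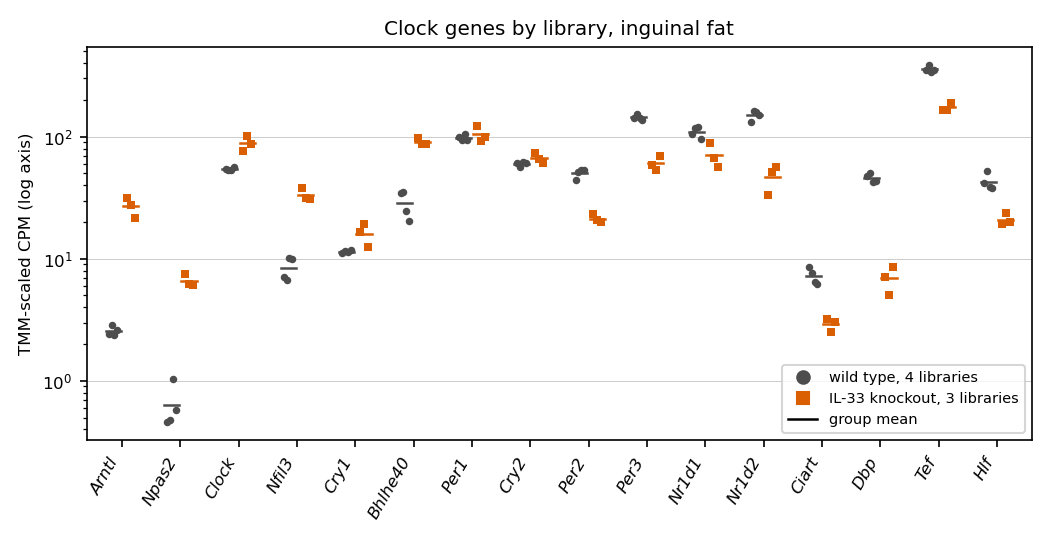
CPM of 16 clock genes in each inguinal library on a log axis; dots are the 4 wild-type libraries, squares the 3 knockout libraries and short lines group means. Arntl, Npas2, Nfil3 and Bhlhe40 lie higher in every knockout library, and Per2, Per3, Nr1d2, Dbp and Tef lie lower in every one.

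Promoters of some of these genes hold known clock elements, and 6 of them are shown here beside the direction in which the gene moved. Windows of 300 bases, 250 before to 50 after each annotated start, were searched on both strands in RefSeq sequence of GRCm38.p6, and 19 of the 24 clock genes had a window. The E-box CACGTG, the site of the BMAL1 complex, was in 7.15% of all 32851 windows. The ROR element TAGGTCA, the site shared by ROR and REV-ERB proteins, was in 2.61%, and the D-box TTATGTAA, the site of DBP, TEF, HLF and NFIL3, in 0.938%. The stretches below are written 5′ to 3′ on the gene's strand, with the element in capitals.
Arntl, ROR element, chr7:113207530-113207558, plus strand: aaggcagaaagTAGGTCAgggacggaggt
Nfil3, ROR element in reverse complement, chr13:52981040-52981073, minus strand: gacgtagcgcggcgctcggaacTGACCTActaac
Per3, D-boxes, chr4:151044794-151044892, minus strand: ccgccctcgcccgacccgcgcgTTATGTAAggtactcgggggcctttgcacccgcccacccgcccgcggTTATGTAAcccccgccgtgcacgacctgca
Ciart, E-boxes, chr3:95882245-95882366, minus strand: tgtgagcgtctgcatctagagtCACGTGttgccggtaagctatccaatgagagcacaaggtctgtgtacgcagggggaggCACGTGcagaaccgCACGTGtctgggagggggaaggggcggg
Tef, E-box, chr15:81802524-81802573, plus strand: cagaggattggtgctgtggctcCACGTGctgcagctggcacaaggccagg
Cry1, E-box, chr10:85185087-85185136, minus strand: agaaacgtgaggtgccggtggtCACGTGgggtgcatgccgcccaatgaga

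The 2 clock genes with a ROR element in the window, Arntl (30 bases after the start) and Nfil3 (12 bases before it), were both higher in knockout. Per3, with D-boxes 205 and 158 bases before the start, was lower. The E-box was in the windows of 5 of the 19 genes. Of these Ciart and Tef were lower and Cry1 higher, while Per1 (0.10) and Bhlhe41 (-0.46) did not pass (edgeR adjusted p = 0.489 and 0.153). Bhlhe41 passed without wild-type library 3 (0.0226). A match is a description of the sequence. It shows neither binding nor a cause, and the absence of a match says only that these letters are not in the window.

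Genes of heat production were mostly higher in the knockout. Ucp1 stood at 587, 904, 1026 and 685 CPM in wild type and at 2089, 1986 and 1579 CPM in knockout (log2 1.24, SE 0.17, edgeR adjusted p = 0.000382). The lowest knockout library lay above the highest wild-type library. Of 24 tested thermogenic effectors, 15 were higher and 2 lower, with a median of 0.59, and without wild-type libraries 2 and 3 the counts were 16 and 1. In 6 of the 7 fits that left out 1 library 1 was lower. Of the 2 falls in the main fit, 1 was Atp2a1 (-2.73), which is also among the muscle genes given above.

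Gpd2, the mitochondrial arm of the glycerol phosphate shuttle, stood at 331, 371, 299 and 252 CPM in wild type and at 885, 1000 and 616 CPM in knockout (log2 1.41, SE 0.16, edgeR adjusted p = 9.09e-05). Letmd1, a mitochondrial protein needed in brown adipocytes, stood at 173, 161, 158 and 142 CPM and at 449, 386 and 266 CPM (log2 1.21, SE 0.14, edgeR adjusted p = 9.46e-05). Pank1, a kinase of coenzyme A synthesis, rose by 0.90 (SE 0.11). The lipid-droplet protein Cidea rose by 0.55 (SE 0.14), and the respiratory subunits Cox7a1 and Cox8b, which mark brown and muscle mitochondria, by 0.56 (SE 0.10) and 0.57 (SE 0.15). In each of these genes the groups did not overlap, and knockout library 4 was the lowest of the knockout libraries for Gpd2, Letmd1, Pank1, Cidea and Cox7a1.

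Not all genes of the programme followed. Dio2, which activates thyroid hormone within the cell, stood at 12.4, 14, 55.1 and 24.4 CPM in wild type and at 30.3, 40.1 and 24.9 CPM in knockout (log2 0.27, SE 0.58, edgeR adjusted p = 0.776). Ppargc1a, the coactivator of mitochondrial biogenesis, stood at 32.3, 29.1, 51.4 and 30.7 CPM and at 41.3, 55.4 and 37.7 CPM (log2 0.32, SE 0.20, edgeR adjusted p = 0.271). In both genes wild-type library 3 was the highest of its group, and without it both passed (0.0495 and 0.0114). Of 16 tested transcriptional regulators of brown fat, 4 were higher and 2 lower (25% and 12.5%), which is near the background for falls. The count of rises was 2 without knockout library 3 or with all 4 groups in 1 fit. The count of falls was 0 in both of those settings, without knockout library 2, and without wild-type libraries 2, 3 or 4 alone or 2 and 3 together, and it was 1 with limma-voom. Esrra, an oestrogen-related receptor that drives mitochondrial genes, rose by 0.59 (SE 0.11, edgeR adjusted p = 0.00151), and the Ucp1 activator Zfp516 by 0.64 (SE 0.11, edgeR adjusted p = 0.00103). Irf4, a factor that fasting and cold induce in adipocytes, stood at 43.1, 117, 307 and 245 CPM in wild type and at 30.8, 29.1 and 34.7 CPM in knockout. All knockout libraries were below all wild-type libraries, but the wild-type libraries spread widely, and at -2.49 (SE 0.72, edgeR adjusted p = 0.0507) the gene narrowly missed the threshold. It passed without wild-type library 1 (0.00258), with the filter at 5 CPM (0.0172), with the DESeq2 Wald test (0.00138) and with non-robust dispersions (0.00212).

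Genes selective for beige cells did not follow Ucp1 as a group. Of 11, 2 were higher and 4 lower, with a median of -0.26, and with all 4 groups in 1 fit 0 were higher and 2 lower. Without wild-type libraries 2 and 3, 1 was higher. Tmem26, a surface protein used to mark beige cells, stood at 3.34, 4.04, 2.31 and 3.47 CPM in wild type and at 1.51, 1.82 and 1.88 CPM in knockout (log2 -0.93, SE 0.22, edgeR adjusted p = 0.00670). Ear2 fell by 1.18 (SE 0.23), and the beige marker Tbx1 rose by 1.36 (SE 0.33), from 0.526 to 1.57 CPM to 2.18 to 3.89 CPM. In the creatine cycle, another heat-producing route, 3 of 6 tested genes were lower and 0 higher (1 lower with all 4 groups in 1 fit). Gatm, the first enzyme of creatine synthesis, stood at 20.9, 21.1, 21.1 and 27.1 CPM and at 8.91, 12.6 and 14.4 CPM (log2 -0.91, SE 0.15, edgeR adjusted p = 0.000827).

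Receptors for noradrenaline moved in both directions. Of 11 adrenergic genes 5 were higher and 2 lower, and without knockout library 3 there were 3 rises. Adrb3, the beta-3 receptor of adipocytes, stood at 362, 342, 304 and 307 CPM in wild type and at 186, 164 and 236 CPM in knockout (log2 -0.75, SE 0.12, edgeR adjusted p = 0.000516). Adrb1, the beta-1 receptor, rose by 0.96 (SE 0.18), from 3.52 to 4.41 CPM to 5.65 to 9.12 CPM. Adra1a, an alpha-1 receptor, stood at 25.1, 26.5, 31.2 and 21.8 CPM and at 66.4, 62.4 and 52.8 CPM (log2 1.21, SE 0.12, edgeR adjusted p = 1.25e-05). With all 4 groups in 1 fit, Pank1, Gatm, Tmem26, Tbx1, Ear2, Adrb1 and Adrb3 did not pass (0.0517 to 0.401), and 1 adrenergic gene was higher and 0 lower.

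**Figure D4:**
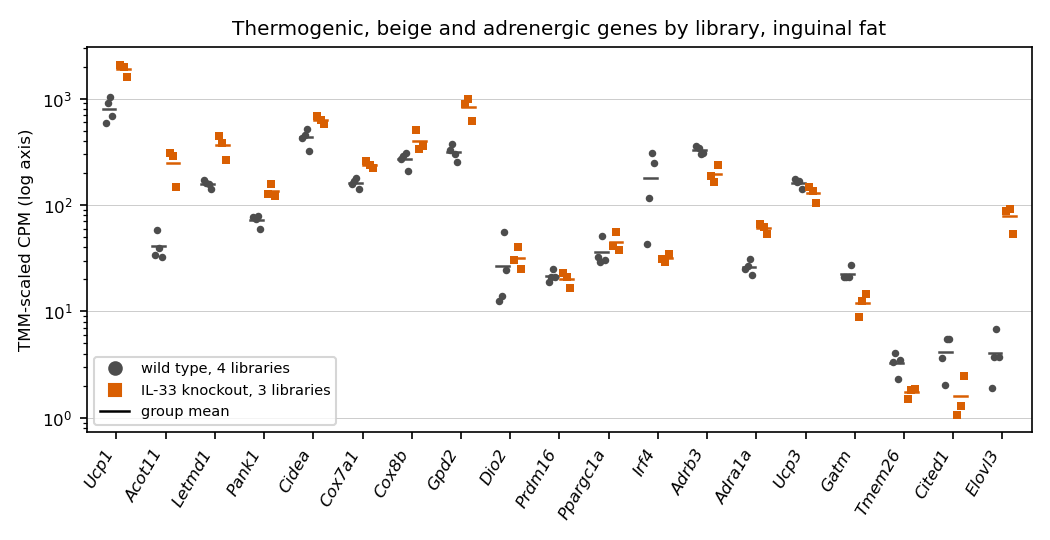
CPM of thermogenic, regulatory, adrenergic, creatine and beige genes in each inguinal library on a log axis; dots are the 4 wild-type libraries, squares the 3 knockout libraries and short lines group means. Ucp1, Letmd1, Gpd2 and Elovl3 lie higher in every knockout library, Adrb3, Gatm and Tmem26 lie lower in every one, and Irf4 spreads from 43.1 to 307 CPM among the wild-type libraries.

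Of 24 genes of white adipocyte identity and secretion, 4 were higher and 6 lower, with a median of -0.06. Nnat, neuronatin, a small membrane protein of adipocytes and neurons, stood at 594, 662, 590 and 598 CPM in wild type and at 147, 134 and 184 CPM in knockout (log2 -1.98, SE 0.12, edgeR adjusted p = 2.26e-07). Agt, the precursor of angiotensin, moved the opposite way, from 63.3, 57.7, 47.7 and 61.3 CPM to 192, 135 and 143 CPM (log2 1.44, SE 0.13, edgeR adjusted p = 7.29e-06). Among secreted factors, Angptl4, an inhibitor of lipoprotein lipase, fell by 0.76 (SE 0.14) and the retinol carrier Rbp4 by 0.66 (SE 0.10). Lep, the satiety hormone leptin, was at 332, 360, 201 and 294 CPM and at 236, 238 and 277 CPM and did not pass (-0.25, edgeR adjusted p = 0.281), but passed without wild-type library 3, its lowest (0.0204). Plin1, the coat protein of lipid droplets, rose by 0.52 (SE 0.12). Its call was lost without wild-type libraries 2 and 3 (0.0739), and those of Plin1 and Rbp4 with all 4 groups in 1 fit (0.443 and 0.0534).

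Most of the fatty acid synthesis genes that passed were higher. Of 20 lipogenic genes 11 rose and 1 fell, with a median of 0.42. Fasn, fatty acid synthase, stood at 11365, 10252, 9154 and 7578 CPM in wild type and at 23544, 18769 and 13661 CPM in knockout (log2 0.96, SE 0.18, edgeR adjusted p = 0.00158). Acly, which makes cytosolic acetyl-CoA, rose by 0.97 (SE 0.14), Acaca, which makes malonyl-CoA, by 0.76 (SE 0.15) and Thrsp, a promoter of lipogenesis, by 0.60 (SE 0.11). Knockout library 2 was the highest and library 4 the lowest of the knockout libraries for all 4 genes. Among 12 elongases and desaturases 5 were higher and 1 lower. Scd1, which desaturates stearate, stood at 12232, 16791, 13500 and 9809 CPM and at 32446, 33491 and 20912 CPM (log2 1.15, SE 0.19, edgeR adjusted p = 0.000961). Scd2 rose by 1.19 (SE 0.13) and Elovl6, which elongates palmitate, by 1.21 (SE 0.15), while the desaturase-like Fads3 fell by 0.81 (SE 0.09). With all 4 groups in 1 fit, where 1193 of all 16858 tested genes were higher, 2 lipogenic genes and 1 elongase or desaturase rose. In that fit Fasn, Acly, Acaca, Thrsp, Scd1, Scd2 and Elovl6 did not pass (0.0546 to 0.218). Without wild-type libraries 2 and 3, 8 lipogenic genes and 4 elongases and desaturases were higher.

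Of 10 lipolysis and storage genes 4 were higher and 1 lower (2 higher with all 4 groups in 1 fit). Pnpla2, the lipase that starts triglyceride breakdown, stood at 2045, 1796, 1946 and 1560 CPM in wild type and at 3648, 2773 and 2572 CPM in knockout (log2 0.71, SE 0.13, edgeR adjusted p = 0.00144). Its inhibitor G0s2 rose by 0.90 (SE 0.13), a call lost with all 4 groups in 1 fit (0.621). Lipe, hormone-sensitive lipase, did not pass (0.17, SE 0.12, edgeR adjusted p = 0.317).

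Most genes that burn fatty acids rose. Of 32 oxidation genes 20 were higher and 1 lower, with a median of 0.45, and 16 were higher without wild-type libraries 2 and 3. Within the list, 12 of 13 mitochondrial beta-oxidation genes rose, but only 3 of 8 peroxisomal genes and 1 of 4 ketone enzymes. Acadm, the medium-chain dehydrogenase, stood at 1026, 956, 1077 and 901 CPM in wild type and at 2082, 1963 and 1770 CPM in knockout (log2 0.97, SE 0.10, edgeR adjusted p = 2.19e-05). Acadvl, the very-long-chain dehydrogenase, rose by 0.97 (SE 0.11) and Hadha, of the trifunctional protein, by 1.01 (SE 0.14). At the point of entry, Acsl5, which activates fatty acids, stood at 95.8, 109, 98.6 and 94.1 CPM and at 349, 340 and 231 CPM (log2 1.63, SE 0.13, edgeR adjusted p = 2.09e-06). The forms of carnitine palmitoyltransferase, which gate entry into mitochondria, moved apart: Cpt1b, the muscle and brown fat form, rose by 1.01 (SE 0.23), from 4.33 to 7.39 CPM to 9.15 to 17.3 CPM. Cpt1a, the liver form, stood at 42.7, 41.9, 44.8 and 48.0 CPM and at 33.4, 29.1 and 24.1 CPM (log2 -0.62, SE 0.11, edgeR adjusted p = 0.00102).

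In the TCA cycle and branched-chain amino acid lists, every gene that passed rose. Of 20 TCA cycle and pyruvate genes 17 rose and 0 fell (median 0.60), and of 17 genes that break down leucine, isoleucine and valine all 17 rose (median 0.57), against 15.3% of all tested genes. Without wild-type libraries 2 and 3 the counts were 15 and 13, and with all 4 groups in 1 fit 14 and 16. Dbt, the core subunit of the branched-chain dehydrogenase, stood at 150, 154, 151 and 150 CPM in wild type and at 305, 347 and 300 CPM in knockout (log2 1.07, SE 0.09, edgeR adjusted p = 1.99e-06). Bcat2, the aminotransferase that starts the route, stood at 346, 283, 305 and 298 CPM and at 660, 566 and 653 CPM (log2 1.02, SE 0.10, edgeR adjusted p = 1.16e-05). Pcca, of propionyl-CoA carboxylase at its end, rose by 0.83 (SE 0.10). In the TCA cycle, Cs, citrate synthase, stood at 1446, 1380, 1382 and 1329 CPM and at 2593, 2399 and 1832 CPM (log2 0.72, SE 0.12, edgeR adjusted p = 0.000542), and Pdha1, of pyruvate dehydrogenase, rose by 0.68 (SE 0.11).

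The nuclear-encoded respiratory chain changed in part. Of 74 genes 21 rose and 3 fell, with a median of 0.13, and without wild-type libraries 2 and 3 9 rose and 1 fell. By complex, 10 of 35 complex I genes rose, 8 of 13 of complexes II and III, 0 of 11 listed for complex IV and cytochrome c, and 3 of 15 of ATP synthase, where 3 also fell. Those 11 do not include the complex IV subunits Cox7a1 and Cox8b, which rose by 0.56 and 0.57. Ndufs1, the largest complex I subunit, rose by 0.62 (SE 0.10), Sdha of complex II by 0.58 (SE 0.10) and Uqcrc1 of complex III by 0.62 (SE 0.11), with edgeR adjusted p from 0.000405 to 0.00102. Cox4i1 of complex IV stood at 965 to 1075 CPM in wild type and at 1069 to 1103 CPM in knockout and did not pass (0.09, SE 0.09, edgeR adjusted p = 0.489). None of the 37 genes encoded by mitochondrial DNA had a count in any library, and that part of the chain was not analysed here.

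**Figure D5:**
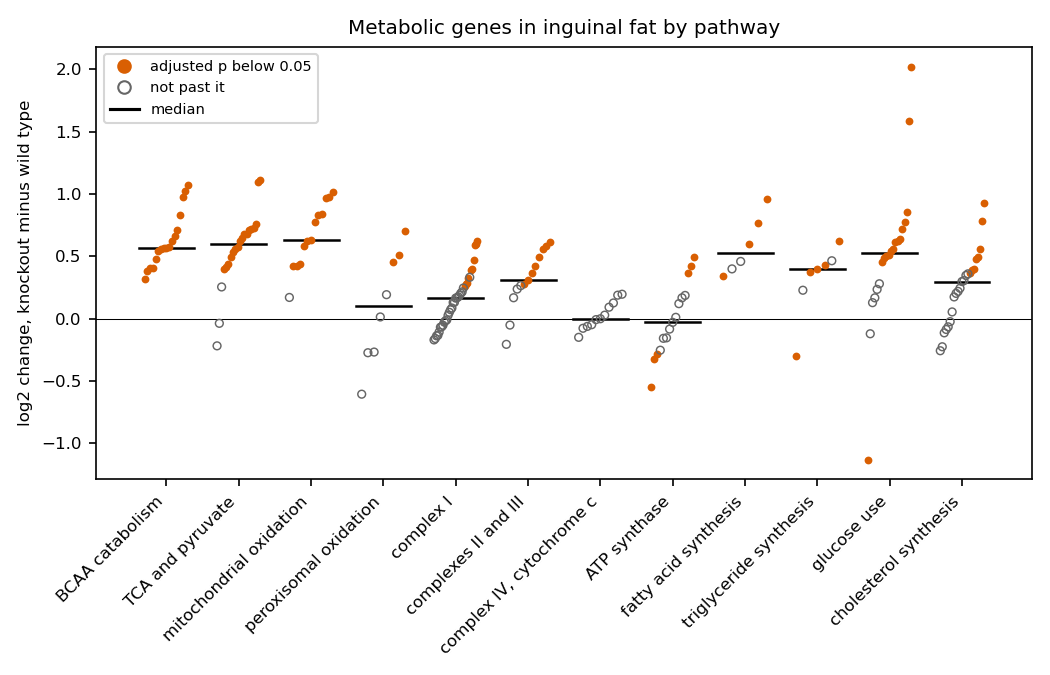
Log2 change, knockout minus wild type, of each gene in 12 metabolic groups; filled dots passed at an adjusted p of 0.05, open circles did not and short lines are medians. All 17 branched-chain amino acid genes are filled and above 0, while complex IV and cytochrome c hold no filled dot. The latter group does not include the complex IV subunits Cox7a1 and Cox8b.

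Most genes of glucose use rose too. Of 20, 14 were higher and 1 lower, with a median of 0.53, 10 were higher without wild-type libraries 2 and 3, and 6 with all 4 groups in 1 fit. Slc2a4, the insulin-regulated transporter GLUT4, rose by 0.64 (SE 0.10), and Hk2, the hexokinase of insulin-sensitive tissues, stood at 218, 223, 186 and 173 CPM in wild type and at 404, 399 and 281 CPM in knockout (log2 0.85, SE 0.13, edgeR adjusted p = 0.000431). The largest rises were in subunits that bring phosphatase to glycogen. Ppp1r3b stood at 226, 170, 93.0 and 122 CPM and at 613, 677 and 571 CPM (log2 2.02, SE 0.27, edgeR adjusted p = 0.00119). Ppp1r3c stood at 70.6, 63.7, 56.7 and 55.0 CPM and at 170, 189 and 193 CPM (log2 1.58, SE 0.10, edgeR adjusted p = 4.02e-07). The glycogen branching enzyme Gbe1 rose by 0.62 (SE 0.11). Pygm, the muscle glycogen phosphorylase, fell by 1.13 (SE 0.24) and was highest in wild-type libraries 2 and 3, at 14.3 and 11.6 CPM. With all 4 groups in 1 fit, Slc2a4, Ppp1r3b and Ppp1r3c did not pass (0.158 to 0.227), and Pygm did not with limma-voom (0.0597). Cholesterol synthesis had 8 of 23 genes higher and 0 lower, 4 without wild-type libraries 2 and 3 and 2 with all 4 groups in 1 fit. Lss, which closes the sterol rings, rose by 0.93 (SE 0.12, edgeR adjusted p = 9.59e-05).

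Hormone and stress lists were mixed. Of 22 genes that glucocorticoids or fasting are known to change, 5 were higher and 7 lower (4 and 4 without wild-type libraries 2 and 3, and 3 and 2 with all 4 groups in 1 fit). Cdkn1a, the cell cycle inhibitor p21, stood at 23.1, 25.9, 36.1 and 39.8 CPM in wild type and at 126, 124 and 90.4 CPM in knockout (log2 1.86, SE 0.19, edgeR adjusted p = 0.000120). Txnip, which restrains glucose uptake, fell by 0.88 (SE 0.16) and the mTOR inhibitor Ddit4 by 0.87 (SE 0.15). Of 22 immediate early genes 5 were higher and 7 lower (2 and 3 with all 4 groups in 1 fit), with the AP-1 subunits Junb at 1.24 (SE 0.23) and Fos at -0.75 (SE 0.19). In the unfolded protein response 3 of 18 were higher and 3 lower (1 lower without knockout library 3 or with all 4 groups in 1 fit). Trib3, a pseudokinase of the ATF4 branch, stood at 3.01, 3.12, 2.31 and 2.35 CPM and at 14.2, 12.0 and 10.7 CPM (log2 2.18, SE 0.16, edgeR adjusted p = 1.35e-06). Ddit3, the transcription factor CHOP, rose by 0.93 (SE 0.11). Heat shock genes were near the background, with 2 of 14 higher and 1 lower. With all 4 groups in 1 fit, Ddit4, Fos and Ddit3 did not pass (0.0730 to 0.309).

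Immune cell genes differed by lineage. Of 10 tested mast cell genes 5 rose and 0 fell. Cpa3, carboxypeptidase A3 of mast cell granules, stood at 8.43, 7.89, 6.41 and 8.74 CPM in wild type and at 20.7, 22.1 and 21.4 CPM in knockout (log2 1.44, SE 0.12, edgeR adjusted p = 3.27e-06). The granule proteases Cma1 (1.32, SE 0.16), Tpsb2 (1.28, SE 0.16) and Mcpt4 (1.07, SE 0.13) rose as well. Kit, the stem cell factor receptor that mast cells share with other cells, did not pass (0.21, SE 0.13, edgeR adjusted p = 0.237). Of 6 eosinophil genes 5 were below the filter on low counts, and the 1 tested did not pass (log2 -0.03). Below the filter, Prg2 had 32 counts over wild type and 9 over knockout. Siglecf, Ccr3, Epx and Ear1 had at most 7 in either group. Without wild-type libraries 2 and 3 the same count of 5 mast cell and eosinophil genes was higher.

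Of 10 tested genes of type 2 innate lymphoid cells, the best known targets of IL-33, 1 was lower and 0 higher. The lower count was 0 without knockout library 3, wild-type library 4 or wild-type libraries 2 and 3 together. It was also 0 with all 4 groups in 1 fit, and it was 2 without knockout library 4. Without knockout library 2, 1 gene was higher. The cytokines Il5 and Il13 were below the filter, with 10 and 22 counts over the wild-type group and 3 and 25 over the knockout group, so that a change in them was not detectable at this depth. Macrophage genes had 1 of 18 higher and 4 lower; the lower count was 0 without knockout library 3 or without wild-type libraries 2 and 3 or with all 4 groups in 1 fit, 1 without either of those wild-type libraries alone and 2 without knockout library 2. Chil3, a chitinase-like protein of alternatively activated macrophages and neutrophils, rose by 1.56 (SE 0.29). Of 7 tested neutrophil genes 4 were higher, and 2 without knockout library 2 or 4 or wild-type library 4. The list also held 4 genes below the filter. Over the wild-type and knockout groups Ltf had 39 and 7 counts, Ngp 8 and 2, Mpo 9 and 4, and Retnlg 14 and 23. S100a9, a calcium-binding protein of neutrophils, stood at 0.278, 0.393, 0.485 and 0.263 CPM and at 2.0, 2.02 and 1.39 CPM (log2 2.37, SE 0.32, edgeR adjusted p = 0.000139).

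Of the interferon-induced genes that passed, most were lower. Of 30, 16 fell and 2 rose, with a median of -0.58, and 10 were lower without wild-type libraries 2 and 3. Cxcl9, a chemokine that draws T cells, stood at 26.7, 30, 36.9 and 24.1 CPM in wild type and at 8.40, 9.07 and 11.6 CPM in knockout (log2 -1.59, SE 0.16, edgeR adjusted p = 1.79e-05). Ifit3, an antiviral RNA-binding protein, fell by 1.28 (SE 0.17) and Isg15, a ubiquitin-like modifier, by 0.86 (SE 0.17), each highest in wild-type library 3. Of 18 genes of antigen presentation 10 fell and 1 rose. The class II part had 6 of 8 lower, with Cd74, the invariant chain, at 71.1, 85.3, 83.2 and 70.5 CPM and at 54.4, 41.0 and 56.3 CPM (log2 -0.61, SE 0.12, edgeR adjusted p = 0.00164). H2-Aa, a class II chain, fell by 0.81 (SE 0.19) and H2-K1, of class I, by 0.54 (SE 0.10). B cells also carry class II genes, and B-cell genes had a median of -0.82 in these libraries, whose part in the result was not tested. The lower count of the presentation list was 6 without knockout library 3, 3 without wild-type libraries 2 and 3 and 5 with all 4 groups in 1 fit. H2-Aa lost its call without wild-type libraries 2 and 3 (0.0729), and H2-K1 with all 4 groups in 1 fit (0.125).

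Genes of DNA replication and mitosis were mostly lower. Of 33, 26 fell and 1 rose, with a median of -0.64. Mki67, the proliferation antigen, stood at 109, 86.8, 133 and 124 CPM in wild type and at 78.4, 73.3 and 75.7 CPM in knockout (log2 -0.58, SE 0.12, edgeR adjusted p = 0.00369). Cyclin A2, Ccna2, fell by 0.88 (SE 0.14), the mitotic kinase Cdk1 by 0.79 (SE 0.16) and topoisomerase Top2a by 0.64 (SE 0.13). The exception was E2f2, a transcription factor of the S phase, at 12.7, 9.04, 12.0 and 10.8 CPM and at 34.3, 35.1 and 30.4 CPM (log2 1.58, SE 0.12, edgeR adjusted p = 1.54e-06). The summed level of the list ran from 736 CPM in wild-type library 2 to 1067 CPM in library 4, and from 614 to 697 CPM in knockout. The lower count was 28 without wild-type libraries 2 and 3, 17 without knockout library 3 and 5 with all 4 groups in 1 fit, where Mki67, Ccna2, Cdk1, Top2a and E2f2 did not pass (0.0584 to 0.543).

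Most of the vessel and nerve genes that passed were lower. Of 22 endothelial genes 10 fell and 0 rose, and 4 fell without wild-type libraries 2 and 3. Tek, the angiopoietin receptor TIE2, fell by 0.40 (SE 0.11, edgeR adjusted p = 0.0130; 0.225 without those libraries). Pecam1 and Cdh5, junction proteins that define endothelium, did not pass (-0.22 and -0.21; edgeR adjusted p = 0.126 and 0.193). Of 11 nerve and Schwann cell genes 7 fell and 1 rose, and 4 fell without knockout library 3 or with all 4 groups in 1 fit. S100b, a calcium-binding protein of Schwann cells that adipocytes also make and that acts on sympathetic nerve endings, rose instead, from 29.8, 25.5, 23.7 and 26.6 CPM in wild type to 76.4, 77.7 and 57.9 CPM in knockout (log2 1.42, SE 0.11, edgeR adjusted p = 1.99e-06).

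Matrix genes had 2 of 32 higher and 7 lower (3 with all 4 groups in 1 fit). Sparc, a collagen-binding protein, stood at 4351, 4785, 4353 and 4530 CPM in wild type and at 3444, 3078 and 3223 CPM in knockout (log2 -0.47, SE 0.10, edgeR adjusted p = 0.00325). Of 18 progenitor genes 1 rose and 4 fell (2 with all 4 groups in 1 fit). Cd34, a surface marker of progenitors and endothelium, fell by 0.62 (SE 0.13). Dlk1, preadipocyte factor 1, stood at 5.92, 4.72, 6.08 and 8.13 CPM and at 20.5, 16.1 and 13.3 CPM (log2 1.41, SE 0.18, edgeR adjusted p = 0.000125). In splicing factors, a list far from fat biology, 7 of 23 were lower and 1 higher, with 3 lower without wild-type libraries 2 and 3 and 4 with all 4 groups in 1 fit.

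The change in inguinal fat was then tested against the change in brown fat of newborn mice, in 1 fit of all 15 libraries. Tissue and age differ together between these sets and cannot be told apart. In the brown set Il33 did not pass in that fit (log2 -1.08, edgeR adjusted p = 0.116), so its knockout libraries are called labelled knockout. The difference passed at 1517 of 16858 genes (9.0%), 809 with a more positive change in inguinal fat (4.80%) and 708 with a more negative one (4.20%). It was read for Il33, Il1rl1, Ucp1 and 19 of the genes with the largest inguinal changes, which were chosen for those changes.

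Arntl differed most clearly. Its brown levels were 11.0, 11.1, 12.2 and 13.5 CPM in wild type and 17.7, 19.8, 16.4 and 19.8 CPM in labelled knockout, a rise of 0.62 (edgeR adjusted p = 0.0114) that was 2.75 smaller than the inguinal one (SE 0.19, edgeR adjusted p = 1.56e-06). Npas2 rose by 1.22 in brown fat (edgeR adjusted p = 0.0369) and differed by 2.17 (SE 0.52, edgeR adjusted p = 0.0185), a call lost without inguinal knockout library 2 (0.0508). Both activators of the clock thus rose in both tissues in this fit, by less in the brown set.

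The change of Ucp1 was 2.15 higher in inguinal than in brown fat (SE 0.47, edgeR adjusted p = 0.0147), where it was -0.93 and did not pass. Elovl3 differed by 5.56 (SE 0.83, edgeR adjusted p = 0.00214), with brown libraries at 3.23 to 12.0 CPM in wild type and 0.468 to 5.79 CPM in labelled knockout. Acot12 fell in brown fat by 3.65 (edgeR adjusted p = 0.0316), where labelled knockout libraries and wild-type libraries 1 and 2 were at 0.125 CPM or less and wild-type libraries 3 and 4 at 2.21 and 2.52 CPM. Of the muscle genes read, Mylk4, Myh4, Tcap, Pvalb, Actn3, Mybpc2, Trdn and Ryr1 differed, by -4.35 to -2.34, and Actc1 did not pass (-4.14, edgeR adjusted p = 0.0575). Actc1 did pass without inguinal wild-type library 4 or brown wild-type library 2 (0.0403 and 0.0426), with DESeq2 (0.00126) and with the replicate block (0.00279). The call of Trdn was lost in most fits that left out 1 library (0.0507 to 0.132), and that of Myh4 with limma-voom (0.108). The difference in Il1rl1 was 0.07 (SE 0.32, edgeR adjusted p = 0.921). By list, 15 of 32 fatty acid oxidation genes, 11 of 25 thermogenic effectors, 11 of 20 TCA cycle genes and 8 of 17 branched-chain amino acid genes had a more positive change in inguinal fat, and 16 of 24 skeletal muscle genes, 12 of 30 interferon genes, 12 of 22 immediate early genes and 10 of 22 hormone-response genes a more negative one. This comparison leaned on single libraries. Without inguinal knockout library 3 or 2, 632 and 818 genes passed, without inguinal wild-type libraries 2, 3 or 4, 969, 967 and 980, without brown labelled knockout library 4 or brown wild-type library 4, 992 and 1011, and without brown labelled knockout library 1, 3571.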

How the data were processed

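RNA of inguinal fat and of newborn brown fat was sequenced from 15 libraries made with a stranded TruSeq mRNA kit, per the labels' protocols. The authors deposited raw, unnormalized counts for each gene. Genome build mm9 and the tools TopHat2 2.1.0, Subread, featureCounts and edgeR are named in the submitters' processing notes. The sources used here do not give the part each tool played, the annotation or whether counting used strand, so reads of overlapping and antisense genes are uncertain. Every count column matched 1 sample (0 columns were left unmapped). Of 37991 Ensembl identifiers, 32919 were paired with a symbol through a RefSeq table of GRCm38.p6, which served for names, gene order and promoter sequence only. Libraries of 1 group all differed beyond sampling noise (chi-square per degree of freedom at least 14.7).

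The 7 inguinal libraries were fitted on their own in R 4.3.3 with edgeR 4.0.16: filterByExpr with a minimum count of 10, TMM scaling, robust quasi-likelihood F-test and Benjamini-Hochberg adjustment at 0.05. The SE was taken as the size of the log2 change over the square root of F. The difference from brown fat was a contrast in a fit of all 15 libraries. The exact counting interval of Fgf21 covers counting error only. Alternatives were DESeq2 size factors, no filter, a filter at 5 CPM in at least 3 libraries, the DESeq2 1.42.0 Wald test, limma-voom (limma 3.58.1) with quality weights, non-robust dispersions, a block for the replicate number, a fit of all 4 groups together, and omission of each library in turn. The fits were tested on simulated data. Leaving out wild-type libraries 2 and 3 together was chosen after the data were seen.

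The members and the 42 gene lists were chosen with earlier results of these data known, so lists get counts and medians and no test. Of 833 list entries 825 matched a gene, 7 through an older symbol. The rule for naming genes took Il33, Il1rl1 and Ucp1, the 15 largest rises and 15 largest falls (passed, a mean of at least 1 TMM-scaled CPM in the higher group, no overlap, no predicted genes), key members marked in each list, and the 3 members of each list with the smallest p. The text names part of these, chosen after the values were seen, and some list members are counted but not reported by name here. Genes below the filter, such as Krt5, Krt8, Il5, Il13 and Xist, are given as values without a test.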

Additional observations from a re-analysis of the deposited data

Results flagged for a closer look

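In 5 of 148 named genes (3.38%) 1 wild-type library stood apart from the other three. The gap to its nearest neighbour, divided by the range of the group, exceeded Dixon's 95% limit for 4 values, which chance passes in about 1 in 20 groups. The ratio was 0.957 for Gatm, highest in library 4, 0.896 for Nnat, highest in library 2, 0.864 for Isg15 and 0.856 for Ppargc1a, both highest in library 3, and 0.846 for G0s2, highest in library 1. For Gatm, Nnat, Isg15 and G0s2 the groups did not overlap with that library included.

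The change in inguinal fat differed from that in newborn brown fat at 19 of 22 genes read, by edgeR's test of the difference itself. Of all 16858 tested genes 9.0% passed. The inguinal change was the more positive for Acot12 (7.58), Fgf21 (6.53), Mab21l2 (5.93), Elovl3 (5.56), Cyp2b10 (5.44), Slco4a1 (4.97), Grip1 (4.06), Arntl (2.75), Npas2 (2.17) and Ucp1 (2.15). It was the more negative for Mylk4 (-4.35), Myh4 (-3.55), Pvalb (-3.43), Tcap (-3.30), Mybpc2 (-3.20), Actn3 (-3.06), Il33 (-2.65), Ryr1 (-2.60) and Trdn (-2.34). All but Il33 and Ucp1 were read because they were among the largest inguinal changes in these same libraries. That choice favours a large difference. The edgeR adjusted p of Il33 was 0.0218 and exceeded the threshold without inguinal knockout library 2 or 4 (0.0529 and 0.0501). That of Cyp2b10 was 0.0254 and exceeded it without any 1 inguinal library other than knockout library 4 (0.0531 to 0.0630), with limma-voom (0.0515), with no filter (0.0607) and with the replicate block (0.125). That of Fgf21 was 0.0211 and exceeded it without brown wild-type library 3 or 4 (0.0560 and 0.145), without inguinal knockout library 3 (0.0513) and with the replicate block (0.0511).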

How the results depend on the processing

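The count of genes passing in inguinal fat was 4498, and between 3741 and 4726 under 6 settings: the filter at 5 CPM, no filter, limma-voom, non-robust dispersions, DESeq2 size factors and DESeq2's Wald test. With the replicate block it was 3990. The labels do not say whether replicate numbers pair the libraries. Over all tested genes, deviations of same-numbered libraries correlated at -0.10, -0.04 and 0.05, a measure that would miss a pairing acting on few genes. The count was 2249 with all 4 groups in 1 fit, 2308 without wild-type libraries 2 and 3, and 3274 to 4719 without any 1 library. List members passing numbered 377, and also 377 with the replicate block, 223 with all 4 groups in 1 fit and 310 to 391 without any 1 library. The difference from brown fat passed at 1517 genes, and at 1522 with DESeq2 size factors, 1152 with no filter, 3652 with limma-voom, 2320 with DESeq2's Wald test, 859 with the replicate block and 632 to 3571 without any 1 library. The cause of these shifts was not tested.

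Of 148 tested genes named in the text 132 passed, and 86 of these passed in every alternative that tested them. No gene that passed changed sign. Per1, which did not pass, ranged from -0.021 to 0.19 without any 1 library. All 4 groups in 1 fit ended 34 calls, limma-voom 10, the absence of wild-type libraries 2 and 3 6, the absence of knockout libraries 2, 3 or 4 4, 2 and 1, that of wild-type libraries 1, 2 or 4 1 each, the replicate block 2 and no filter 1. Apart from those in the report, Myh4 lost its call with the replicate block (0.0550) and Irf4 gained one (0.0201). Cyp4b1 lost its call with all 4 groups in 1 fit (0.112). The difference in Il1rl1 between the tissues, 0.07, did not pass anywhere and ranged from -0.16 to 0.23 without any 1 library, and was -0.068 with the replicate block. Among lists, the replicate block moved the lower count of macrophage genes from 4 to 2 and of B-cell genes from 3 to 5 (7 with the DESeq2 Wald test). The filter at 5 CPM, which tests fewer genes, left 1 of 4 beige falls, 0 of 4 neutrophil rises and 3 of 5 rises each in the hormone and immediate early lists. Depth limits what can be said of genes below the filter, which include 4 of the 14 type 2 innate lymphoid cell genes and 13 of the 19 epithelial genes.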

Other observations

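Beside Cyp2b10, 3 other P450 genes rose in inguinal knockout fat and 2 fell. Cyp2f2, which oxidises small aromatic compounds, stood at 23.2, 36.8, 18.6 and 24.1 CPM in wild type and at 96.7, 72.4 and 92.4 CPM in knockout (log2 1.76, SE 0.20, edgeR adjusted p = 0.000226). Cyp2d22 stood at 27.4, 33.9, 31.3 and 29.2 CPM and at 88.8, 76.9 and 68.7 CPM (log2 1.36, SE 0.10, edgeR adjusted p = 1.60e-06). Cyp27a1, a sterol hydroxylase of mitochondria, rose by 0.90 (SE 0.11), and Cyp4b1, which acts on fatty acids, fell by 0.74 (SE 0.10). In these 4 genes no knockout library reached the wild-type range. Of 20 listed P450 genes 6 were below the filter on low counts.

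Xist, the RNA of the inactive X chromosome, stood at 0.112 to 0.309 CPM in wild type and at 0.154 to 0.463 CPM in knockout, and 0 of 4 tested sex-linked genes passed with edgeR.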
